A study of Mus musculus with 36 samples.

Results

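A set of 9 genes of coagulation and fibrinolysis was followed in macrophages and monocytes sorted from the lungs of mice that had breathed filtered air or concentrated fine particles. The genes were F5, F7, F10, F13a1, Proz, Thbd, Plau, Plaur and Thbs1. They were taken by symbol from a table of FPKM (fragments per kilobase of transcript, scaled to library size), and all 9 were found once among its 27562 genes. The table held 36 libraries in 12 groups of 3.

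All mice, the filtered air controls included, were lung-shielded bone marrow chimeras. Male C57BL/6J hosts (CD45.2) were γ-irradiated with the chest shielded, given busulfan and transplanted with marrow from B6.SJL-Ptprca Pepcb/BoyJ donors (CD45.1). They then breathed filtered air (FA) or concentrated PM2.5 for 4 or 32 weeks (4-weeks, 32-weeks). Alveolar macrophages (AΦ) were sorted as CD64+ CD11c-high CD11b-low cells and monocytes as Ly6G- MHC II- CD64-low CD11b-high cells. Tissue-resident AΦ (TR-AΦ, CD45.2) and CD45.2 monocytes came from 4-weeks and 32-weeks, each with FA and with PM2.5. Bone marrow-derived AΦ (BM-AΦ, CD45.1) and CD45.1 monocytes came from 32-weeks, again with FA and with PM2.5. The sample titles number the 32-weeks cells 1 and 2. These numbers were read as CD45.1 and CD45.2, after the study's own key for AΦ, and the monocytes were assumed to follow the same key. The 32-weeks mice were also older than the 4-weeks mice, so exposure time, age and the time of collection cannot be told apart. CD45.2 monocytes of either time point are host cells in mice whose marrow had been replaced. Marrow donors and hosts differ in their congenic interval as well as in origin.

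Clotting is a cascade of serine proteases that circulate as inactive precursors. Factor VII, bound to tissue factor, activates factor X. Active factor X, with factor V as its cofactor, turns prothrombin into thrombin, and thrombin turns fibrinogen into fibrin, which factor XIII cross-links. Protein Z and thrombomodulin restrain the cascade: protein Z serves a serpin that blocks active factor X, and thrombomodulin turns thrombin into an activator of protein C. Fibrin is cleared by plasmin, which urokinase (Plau) releases from plasminogen at its receptor (Plaur). Thrombospondin 1 (Thbs1) is a matrix glycoprotein of platelet granules and of myeloid cells. Most clotting factors are made by the liver, but lung macrophages and monocytes are known to make several of them, and fibrin in the airspace is a feature of lung injury.

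In GRCm38 (mm10) the genes lie at 7 places on 6 chromosomes. F7 (chr8:13026034-13035809), F10 (chr8:13037308-13056676) and Proz (chr8:13060914-13076026) follow one another on the forward strand, 1498 bases apart between F7 and F10 and 4237 bases apart between F10 and Proz. The others are F5 (chr1:164151838-164220277, forward), F13a1 (chr13:36867178-37050244, reverse), Thbd (chr2:148404466-148408188, reverse), Thbs1 (chr2:118111876-118127133, forward), Plau (chr14:20836660-20843385, forward) and Plaur (chr7:24462484-24475968, forward). The locus that the table gives for F5 starts at 164115264, the start of the neighbouring gene Selp, so how reads of the pair were shared is uncertain. F13a1, F5 and Thbs1 also overlap non-coding genes on the opposite strand. The library kit was stranded, but the strand setting of the quantification is not given in the sources used here, so reads of those partners may be included.

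The promoters of F7, F10 and Proz are shown because these 3 neighbours behaved differently in the data below. F7 separated AΦ from monocytes, and Proz separated all libraries of 4-weeks from those of 32-weeks. F10 separated the time points within TR-AΦ and within CD45.2 monocytes, but not over AΦ of both origins. The contrast is not exclusive. F7 also differed between the time points in CD45.2 monocytes, and F10 between the cell types at 4-weeks. RefSeq sequences of GRCm38.p6 were at hand for 6 of the 9 genes, each 300 bases long, from 250 before to 50 after a start site. All 3 printed here are on the forward strand, at chr8:13025784-13026083, chr8:13037058-13037357 and chr8:13060658-13060957, and capitals mark the motif matches named after them.
F7: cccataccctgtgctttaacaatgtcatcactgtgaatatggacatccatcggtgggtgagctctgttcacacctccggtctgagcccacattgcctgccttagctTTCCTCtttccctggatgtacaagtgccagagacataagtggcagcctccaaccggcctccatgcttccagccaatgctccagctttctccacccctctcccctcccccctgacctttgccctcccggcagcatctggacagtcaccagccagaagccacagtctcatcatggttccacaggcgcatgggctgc
F10: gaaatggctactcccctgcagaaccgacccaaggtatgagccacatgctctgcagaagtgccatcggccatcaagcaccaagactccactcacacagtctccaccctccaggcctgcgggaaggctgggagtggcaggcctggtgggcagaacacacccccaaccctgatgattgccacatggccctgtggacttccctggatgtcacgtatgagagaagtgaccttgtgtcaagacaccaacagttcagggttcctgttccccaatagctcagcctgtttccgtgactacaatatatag
Proz: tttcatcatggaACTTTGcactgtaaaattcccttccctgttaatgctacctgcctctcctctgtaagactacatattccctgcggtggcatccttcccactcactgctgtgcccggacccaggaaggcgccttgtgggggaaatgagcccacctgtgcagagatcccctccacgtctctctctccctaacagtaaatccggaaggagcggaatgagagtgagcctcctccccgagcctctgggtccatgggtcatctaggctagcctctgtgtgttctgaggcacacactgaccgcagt

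The motifs searched on both strands were the PU.1 core GAGGAA, C/EBP TTGCNNAA, AP-1 TGANTCA, the Sp1 box GGGCGG, the TATA box TATAAA and the HNF4 string CAAAGT. None of these overlaps another in the 3 promoters printed. The F7 window held 1 match, the PU.1 core on the reverse strand (TTCCTC, bases -144 to -139), a string present in 28.3% of 32851 RefSeq promoters of this length. The Proz window held 1 match, the HNF4 string on the reverse strand (ACTTTG, bases -238 to -233), present in 14.4% of promoters. The F10 window held none of the 6. The shares of promoters with the other strings were 10.8% for C/EBP, 7.81% for AP-1, 35.7% for the Sp1 box and 13.6% for the TATA box. A match describes the letters of a window and is not evidence of binding.

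The sorted cells carried the markers of their gates. Siglecf, an AΦ surface lectin, was at 69.6 to 157 FPKM in the 18 AΦ libraries and at most at 8.99 in the 18 monocyte libraries. Itgax (CD11c) was at 49.7 to 83.6 in AΦ and 5.40 to 19.3 in monocytes, and Itgam (CD11b) at 0.593 to 10.2 and 63.6 to 142. Fcgr1 (CD64), which the gates set as a difference, overlapped between them, at 13.7 to 24.3 in AΦ and 8.46 to 45.3 in monocytes. Summed FPKM per library ran from 1840000 to 3340000. The number of reads behind each value is unknown, so no counting interval is given, and p-values measure the spread between libraries. In bulk samples such as these, fewer cells of a type and less RNA per cell cannot be told apart.

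The order of these genes differed between the cell types, and both expressed Plaur, F10, Thbd and Plau. In AΦ the order of median FPKM began with Plaur, F7, F10, Thbd and Plau at both time points and in both origins. In monocytes Thbs1 came first, then F13a1 and Plaur, and Thbd, F10 and F5 after them. Plaur was above F13a1 by median at 4-weeks and F13a1 above Plaur at 32-weeks, and the range of F13a1 overlapped those of Thbs1 and Plaur in each population. At the lower end, F5 was the lowest of the 9 in each AΦ population and Proz went from the middle of the order at 4-weeks to the low end at 32-weeks.

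**Figure D1:**
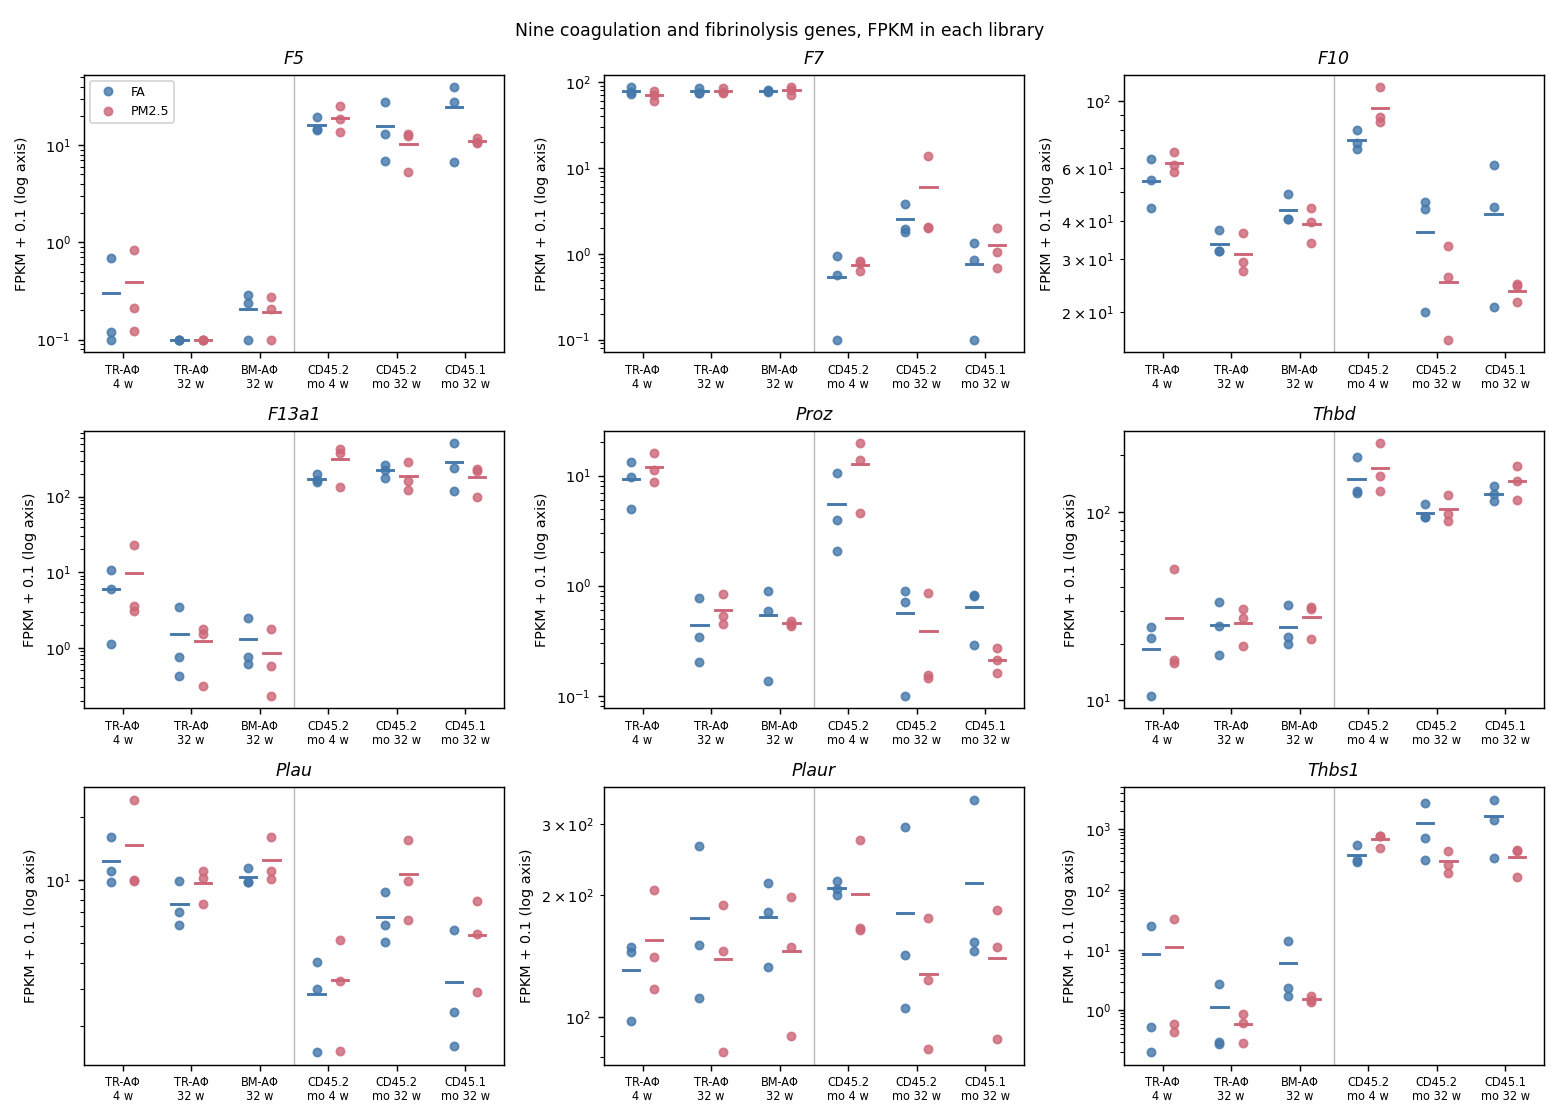
FPKM of the 9 genes in each of 36 libraries, on a log axis after adding 0.1, by sorted population and time point. Blue points are FA, red points PM2.5 and bars the mean of the 3 libraries of each exposure within a population. F7 lies between 59.8 and 87.1 in the AΦ libraries and at most at 13.7 in monocytes, while F5, F13a1, Thbd and Thbs1 lie higher in monocytes.

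The first question was which cell type carried which gene. AΦ of each origin and time point were compared with monocytes of the same origin and time point, over FA and PM2.5 together, so that each side had 6 libraries. The fit was limma on log2(FPKM + 1) over the 13307 genes whose mean reached 1 FPKM, and a gene was called at an adjusted p (Benjamini-Hochberg) under 0.05. At 4-weeks 7 of the 9 genes were called, 2 higher and 5 lower in TR-AΦ, where 48.2% of all genes tested were called, 22.6% higher and 25.5% lower. At 32-weeks 5 were called, 1 higher and 4 lower, beside 47.3% of all genes, 23.6% higher and 23.7% lower. BM-AΦ against CD45.1 monocytes gave 6 calls, 2 higher and 4 lower, beside 50.9% of all genes, 27.1% higher and 23.8% lower. The median log2 difference over the 9 genes was -0.53, 0.05 and -0.07 in these comparisons, and that over all genes tested -0.02, 0 and 0.03. F5 passed the filter only through its level in monocytes.

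Among the factors of the cascade, F7, the protease that starts clotting with tissue factor, was the gene of AΦ. In TR-AΦ at 4-weeks its lowest, median and highest FPKM were 59.8, 73.8 and 87.1, and in CD45.2 monocytes 0, 0.609 and 0.848. At 32-weeks the values were 73.7, 75.6 and 84.8 in TR-AΦ against 1.68, 1.91 and 13.7 in CD45.2 monocytes. In BM-AΦ they were 71.5, 79.7 and 86.5 against 0, 0.855 and 1.91 in CD45.1 monocytes. No AΦ library came near a monocyte library, and the AΦ libraries lay within a narrow band at both time points and in both origins. Mean FPKM was 137-fold higher in TR-AΦ at 4-weeks (log2 difference of 5.62 ± 0.27, SE, adjusted p = 1.98e-15). The fold was 18.9 at 32-weeks (4.28 ± 0.27, adjusted p = 6.82e-13) and 87.7-fold higher in BM-AΦ (5.47 ± 0.27, adjusted p = 3.98e-15).

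The monocyte library with F7 at 13.7 FPKM was CD45.2, PM2.5, 32-weeks, replicate 1. Its summed FPKM over 12 AΦ markers was also the highest of the 18 monocyte libraries, at 1740, where the other 17 lay between 293 and 942. Without it the mean of F7 in TR-AΦ of 32-weeks was 35.2-fold that in CD45.2 monocytes, in place of 18.9-fold. The part of AΦ transcripts in that value was not tested.

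F5, the cofactor of active factor X, had the opposite pattern. It was listed at 0 in all 6 TR-AΦ libraries of 32-weeks and at 0 to 0.743 in those of 4-weeks, with a median of 0.0661. In BM-AΦ it lay between 0 and 0.186. In monocytes its lowest, median and highest FPKM were 13.5, 16.5 and 25.0 at 4-weeks, 5.19, 12.7 and 27.6 in CD45.2 cells at 32-weeks, and 6.57, 11.2 and 39.4 in CD45.1 cells. All 18 monocyte libraries were above all 18 AΦ libraries. On the log2 scale F5 was lower in AΦ by -3.90 ± 0.30 at 4-weeks (adjusted p = 2.69e-11), -3.63 ± 0.30 at 32-weeks (adjusted p = 1.21e-10) and -3.84 ± 0.30 in BM-AΦ (adjusted p = 4.16e-11). Of the ratios of mean FPKM, 70.9-fold at 4-weeks and 177-fold in BM-AΦ could be given, and none against the group listed at 0. The former was 119-fold without TR-AΦ PM2.5 replicate 2.

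F10, the protease that makes thrombin together with factor V, was present in both cell types. At 4-weeks its lowest, median and highest FPKM were 44.0, 59.7 and 67.7 in TR-AΦ and 69.2, 82.5 and 111 in monocytes. At 32-weeks they were 27.3, 31.7 and 37.3 in TR-AΦ and 16.1, 29.6 and 46.0 in CD45.2 monocytes. BM-AΦ had 33.7, 40.5 and 49.1, and CD45.1 monocytes 20.7, 24.4 and 61.3. The groups did not overlap at 4-weeks and overlapped at 32-weeks. The 4-weeks difference was small, -0.52 ± 0.20 on the log2 scale (adjusted p = 0.037), and it passed the threshold under some settings only. Under quantile normalization it was -0.25 (adjusted p = 0.327) and with each library scaled to the same sum (TPM) -0.20 (adjusted p = 0.466). With a replicate block within exposure and time point the adjusted p was 0.059. Leaving out a single library ended the call for 7 of the 12 libraries, with log2 differences between -0.59 and -0.45 over all 12.

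F13a1, the subunit of factor XIII that cross-links fibrin, was a monocyte transcript. Its lowest, median and highest FPKM were 134, 182 and 432 in monocytes at 4-weeks, 121, 202 and 290 in CD45.2 monocytes at 32-weeks, and 99.8, 226 and 507 in CD45.1 monocytes. In AΦ it lay between 1.03 and 22.8 in TR-AΦ at 4-weeks, 0.212 and 3.32 at 32-weeks, and 0.131 and 2.39 in BM-AΦ. The lowest monocyte library was thus above the highest AΦ library. The mean was 31.3-fold lower in TR-AΦ at 4-weeks (log2 difference -5.11 ± 0.47, adjusted p = 6.22e-10), 162-fold lower at 32-weeks (-6.60 ± 0.47, adjusted p = 5.50e-12) and 244-fold lower in BM-AΦ (-6.81 ± 0.47, adjusted p = 2.84e-12). Without TR-AΦ PM2.5 replicate 2 the 4-weeks fold was 50.8. The TR-AΦ libraries with the most F13a1 at 4-weeks were both replicate 2, with 10.7 FPKM in FA and 22.8 in PM2.5. The same libraries had the most Thbs1 of all AΦ, 24.6 and 32.1, and summed to 559 and 616 FPKM over the 10 monocyte markers, against 232 to 370 in the other 4 TR-AΦ libraries of 4-weeks. Their sums over the interstitial macrophage markers were 215 and 646, against 44.8 to 117. The part of monocytes or interstitial macrophages in the values of F13a1 and Thbs1 was not tested.

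Of the restraining genes, Thbd (thrombomodulin, the thrombin receptor that starts the protein C pathway) was higher in monocytes. It was at 126, 142 and 232 FPKM (lowest, median, highest) in monocytes at 4-weeks, at 89.9, 95.8 and 124 in CD45.2 monocytes at 32-weeks and at 115, 131 and 175 in CD45.1 monocytes. In AΦ the values were 10.5, 18.8 and 49.8 in TR-AΦ at 4-weeks, 17.2, 26.0 and 33.2 at 32-weeks, and 19.8, 26.0 and 32.2 in BM-AΦ. The ranges of AΦ and monocytes did not meet, although AΦ carried a clear level of Thbd, unlike F5. The mean was 6.99-fold lower in TR-AΦ at 4-weeks (log2 difference -2.88 ± 0.24, adjusted p = 1.18e-10), 4.01-fold lower at 32-weeks (-1.99 ± 0.24, adjusted p = 1.19e-07) and 5.19-fold lower in BM-AΦ (-2.34 ± 0.24, adjusted p = 6.55e-09). Thbd and Vwf are also endothelial genes, and the 9 endothelial markers summed to 9.95 to 48.9 FPKM in monocytes and 1.39 to 9.59 in AΦ, with a mean of at least 1 for 4 of them or fewer in each population. Their part in these values was not tested. Proz, the cofactor of the serpin that blocks active factor X, was not called in any of these comparisons. With libraries scaled to TPM it was called at 4-weeks, at 0.60 higher in TR-AΦ (adjusted p = 0.020), beside 0.44 (adjusted p = 0.233) on FPKM as deposited.

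Of the fibrinolysis genes, Plau (urokinase, which activates plasminogen) was higher in AΦ than in monocytes at 4-weeks and in BM-AΦ. Its lowest, median and highest FPKM at 4-weeks were 9.70, 10.4 and 24.2 in TR-AΦ and 1.39, 3.04 and 5.05 in monocytes. In BM-AΦ they were 9.63, 10.5 and 16.0, against 1.49, 4.09 and 7.86 in CD45.1 monocytes. At 32-weeks TR-AΦ had 6.00, 8.64 and 10.97 and CD45.2 monocytes 4.94, 7.51 and 15.5, and these ranges overlapped. The mean was 4.51-fold higher in TR-AΦ at 4-weeks (log2 difference of 1.86 ± 0.28, adjusted p = 3.13e-06) and 2.66-fold higher in BM-AΦ (1.35 ± 0.28, adjusted p = 2.27e-04). Plaur, the receptor that holds urokinase at the cell surface, ranged from 82.1 to 265 in all AΦ libraries and from 83.3 to 345 in all monocyte libraries. It was called in none of the 3 comparisons of cell type by the fit described. At 4-weeks, where it was -0.53 in TR-AΦ on the log2 scale (adjusted p = 0.142), it was called with a replicate block within exposure and time point (adjusted p = 0.00095). It was called there also in a model of the compared groups alone (0.041) and without replicate 2 of every group (-0.58, adjusted p = 0.019).

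Thbs1, a matrix protein that binds to CD36 and CD47, had the largest difference of the 9 between the cell types on the log2(FPKM + 1) scale. Its lowest, median and highest FPKM were 289, 519 and 793 in monocytes at 4-weeks, 193, 375 and 2765 in CD45.2 monocytes at 32-weeks, and 165, 449 and 3137 in CD45.1 monocytes. In TR-AΦ they were 0.104, 0.467 and 32.1 at 4-weeks and 0.175, 0.357 and 2.68 at 32-weeks, and in BM-AΦ 1.29, 1.63 and 14.0. No AΦ library overlapped a monocyte library. The mean was 55.1-fold lower in TR-AΦ at 4-weeks (log2 difference -7.05 ± 0.76, adjusted p = 1.15e-08), 1036-fold lower at 32-weeks (-8.26 ± 0.76, adjusted p = 7.34e-10) and 270-fold lower in BM-AΦ (-7.44 ± 0.76, adjusted p = 5.09e-09). These folds rest on few libraries. Without TR-AΦ PM2.5 replicate 2 the 4-weeks fold was 103, and at 32-weeks it was 2119 without TR-AΦ FA replicate 2 and 509.6 without CD45.2 monocytes FA replicate 2. In BM-AΦ it was 609 and 154 without FA replicate 2 of either side. Thbs1 is also a platelet gene. The 10 platelet markers summed to 2.31 to 34.0 FPKM in 12 of the monocyte libraries and 73.7 to 291 in the 6 CD45.2 libraries of 32-weeks. The part of platelets in the values of Thbs1 was not tested.

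**Figure D2:**
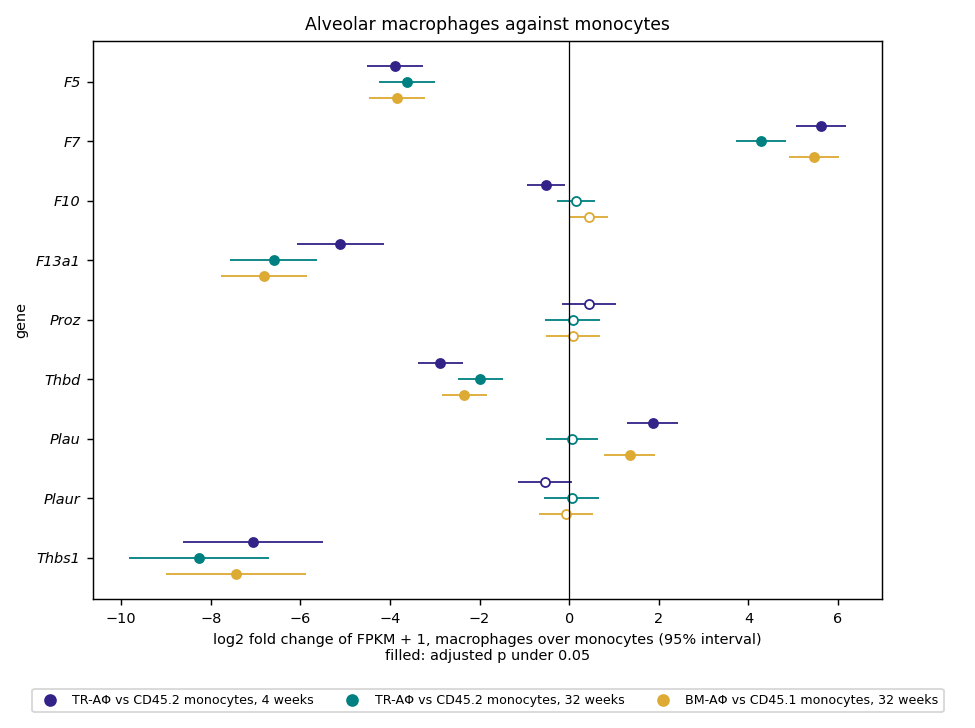
Log2 difference of log2(FPKM + 1) between AΦ and monocytes of the same origin and time point for the 9 genes, 6 libraries a side. Bars are 95% intervals of the limma fit and filled points have an adjusted p under 0.05. F7 is to the right of 0 in all 3 comparisons and F5, F13a1, Thbd and Thbs1 to the left, while Plaur is open in each of these fits.

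The second question was how the genes differed between 32-weeks and 4-weeks, over FA and PM2.5 libraries alike. In TR-AΦ, 8 of the 9 genes passed the filter and 2 were called, both lower, beside 5.91% of 12665 genes called, 2.56% higher and 3.35% lower. In CD45.2 monocytes all 9 passed and 5 were called, 2 higher and 3 lower, beside 14.9% of 12856 genes, 7.06% higher and 7.83% lower. The median log2 change over the genes that were tested was -0.68 in TR-AΦ and -0.51 in CD45.2 monocytes, and over all genes tested 0.03 and -0.05. F10 and Proz were lower in both cell types. Of these genes Proz passed the filter only through its level at 4-weeks, and F7 passed it in monocytes only through CD45.2 cells of 32-weeks.

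Proz had the largest change of the 9 in both. At 4-weeks its FPKM was 9.67, 13.1 and 4.83 in the FA libraries of TR-AΦ and 11.1, 15.8 and 8.61 in those of PM2.5. In CD45.2 monocytes of 4-weeks it was 10.4, 3.88 and 1.98 with FA and 13.6, 19.5 and 4.48 with PM2.5. At 32-weeks no library of either cell type or origin was above 0.792. The 12 libraries of 4-weeks were all above the 24 of 32-weeks. Mean FPKM of Proz was 25.0-fold lower at 32-weeks in TR-AΦ (log2 change of -2.96 ± 0.22, adjusted p = 3.83e-06) and 23.8-fold lower in CD45.2 monocytes (-2.60 ± 0.35, adjusted p = 4.13e-04). Proz was among the genes tested only because of its level at 4-weeks, which limits what these p-values can show. The call held in each of the alternatives tried, including those within FA or within PM2.5 libraries alone.

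F10 fell less. In TR-AΦ it went from 44.0, 64.0 and 54.5 FPKM with FA and 67.7, 58.3 and 61.2 with PM2.5 at 4-weeks to 31.8, 31.7 and 37.3 with FA and 29.1, 36.5 and 27.3 with PM2.5 at 32-weeks. In CD45.2 monocytes it went from 80.0, 72.7 and 69.2 with FA and 88.2, 111 and 85.0 with PM2.5 to 43.9, 19.9 and 46.0 and to 33.0, 16.1 and 26.1. The time points did not overlap in either cell type. The mean was 1.81-fold lower in TR-AΦ (log2 change of -0.83 ± 0.11, adjusted p = 6.11e-04) and 2.74-fold lower in monocytes (-1.50 ± 0.26, adjusted p = 0.0017). Within the FA libraries alone neither passed the threshold, at -0.66 (adjusted p = 0.076) in TR-AΦ and -1.08 (adjusted p = 0.098) in monocytes. Over the 18 libraries of each cell type F10 and Proz had a Pearson r of 0.81 in AΦ and 0.85 in monocytes, as a description. These points share their time point and their neighbourhood on chromosome 8.

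Downstream of Proz on the same strand lie Gm17023, an antisense transcript of Pcid2 that starts 50 bases after the end of Proz, and the processed pseudogene Gm17022, a further 3768 bases on. Both were lower at 32-weeks as well. Gm17022 was at 3.51 to 13 FPKM in TR-AΦ and 1.48 to 16.7 in monocytes at 4-weeks, and at most at 1.14 in any library of 32-weeks. Its log2 change was -2.95 in TR-AΦ (adjusted p = 1.6e-05) and -2.64 in CD45.2 monocytes (adjusted p = 1.5e-04). Gm17023, which was looked at after its values were seen, was at 0.939 to 20.7 and 0.717 to 12.3 at 4-weeks and at 0 in 23 of 24 libraries of 32-weeks. Its log2 changes were -2.66 (adjusted p = 0.0030) and -2.12 (adjusted p = 8.5e-04). Pcid2, the coding gene on the opposite strand, was at 4.10 to 8.58 FPKM over the populations, with log2 changes of 0.21 (adjusted p = 0.27) and -0.25 (adjusted p = 0.32). FPKM by gene do not tell whether reads of Proz, Gm17023 and Gm17022 came from separate transcripts, and this was not tested. F7, upstream of F10, was at 59.8 to 87.1 in TR-AΦ at 4-weeks and 73.7 to 84.8 at 32-weeks, without a call.

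**Figure D3:**
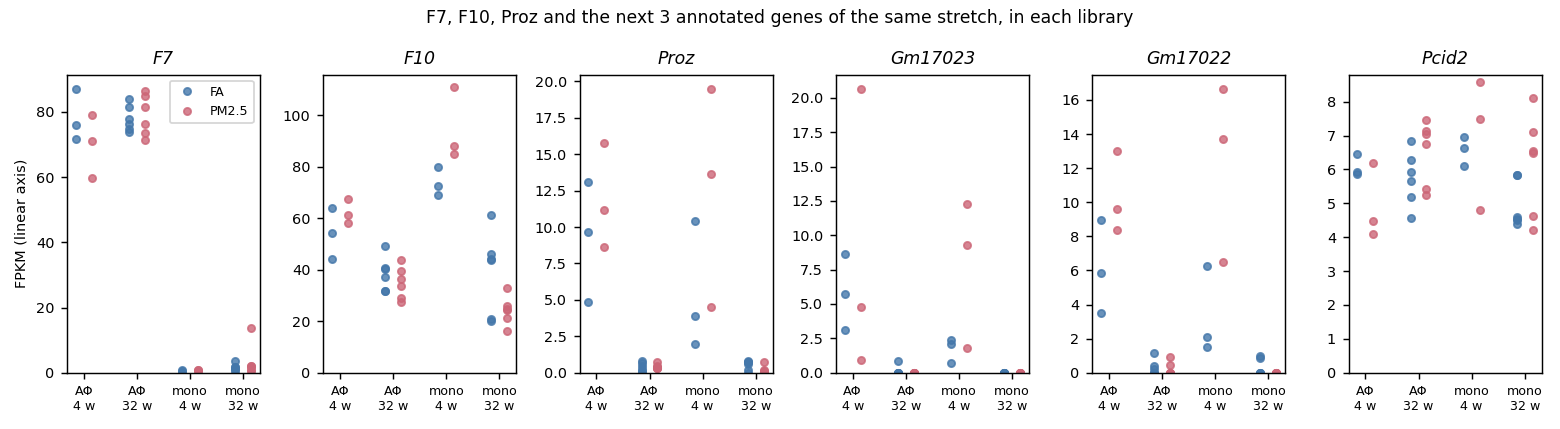
FPKM of F7, F10, Proz and the next 3 genes of the chromosome 8 locus, in AΦ and monocytes of 4-weeks and 32-weeks, on linear axes. Each point is a library. Proz, Gm17023 and Gm17022 are near 0 at 32-weeks in both cell types, and F7 keeps its level in AΦ. F10 lies lower than at 4-weeks, with some overlap in AΦ, where BM-AΦ are included.

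In CD45.2 monocytes F7 and Plau were higher at 32-weeks and Thbd lower. F7 was at 0, 0.848 and 0.463 FPKM with FA and 0.531, 0.726 and 0.687 with PM2.5 at 4-weeks. At 32-weeks it was at 3.71, 1.68 and 1.85 with FA and 1.93, 13.7 and 1.88 with PM2.5. All 6 libraries of 32-weeks were above all 6 of 4-weeks, at a level still far under that of AΦ (log2 change of 1.42 ± 0.38, adjusted p = 0.021). F7 was among the genes tested in monocytes only because of its level in these CD45.2 libraries of 32-weeks, which limits what this p-value can show. Without FA 32-weeks replicate 0 the adjusted p was 0.055, with a log2 change of 1.29, and without the library at 13.7 FPKM the call held. It was also lost without replicate 2 of every group (adjusted p = 0.085) and within FA (0.198) or PM2.5 libraries alone (0.132). Plau was at 3.92, 2.90 and 1.39 with FA and 5.05, 3.19 and 1.42 with PM2.5 at 4-weeks, and at 5.96, 8.67 and 4.94 and at 6.35, 9.75 and 15.5 at 32-weeks. Only the highest library of 4-weeks reached into the range of 32-weeks (log2 change of 1.26 ± 0.32, adjusted p = 0.017). The call for Plau was lost without replicate 2 of every group (0.86, adjusted p = 0.182) and within FA (0.205) or PM2.5 libraries alone (0.104).

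Thbd was at 126, 129 and 195 FPKM with FA and 156, 129 and 232 with PM2.5 at 4-weeks, and at 94.1, 93.8 and 110 and at 124, 89.9 and 97.4 at 32-weeks. The ranges came close without overlap (log2 change of -0.63 ± 0.17, adjusted p = 0.023). The call was lost under quantile normalization (-0.34, adjusted p = 0.172), under TPM scaling (-0.49, adjusted p = 0.136), and without any one of 3 libraries. These were FA 4-weeks replicate 2, PM2.5 4-weeks replicate 2 and PM2.5 32-weeks replicate 1, with adjusted p values of 0.058, 0.052 and 0.057. The call for Thbd was lost as well without replicate 2 of every group (-0.43, adjusted p = 0.103) and within FA (0.197) or PM2.5 libraries alone (0.147). Both replicate 2 libraries of 4-weeks had the highest Thbd of their group. Their summed FPKM over the neutrophil markers was 344 with FA and 1050 with PM2.5, against 25.1 to 51.9 in the other monocyte libraries of 4-weeks. The part of neutrophils in the values of Thbd was not tested.

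Markers of other cells also moved between these time points. Summed over the interstitial macrophage markers, CD45.2 monocytes had 1008 to 3829 FPKM at 32-weeks and 106 to 589 at 4-weeks. The 10 platelet genes summed to 73.7 to 291 at 32-weeks and 2.31 to 15.3 at 4-weeks. Pf4 alone made up 73.0 to 288 of the former, only 2 of the 10 had a mean of at least 1 FPKM, and Gp9 was listed at 0 in all 6 libraries. The AΦ markers summed to 425 to 1740 at 32-weeks and 453 to 754 at 4-weeks. Of 11 AΦ markers tested 6 were higher at 32-weeks and 2 lower. All 7 interstitial macrophage markers tested were higher, beside 7.06% of all genes higher and 7.83% lower. The part of these cells in the changes of F7, Plau and Thbd was not tested. A list of immediate early and heat shock genes, which respond to handling of cells, was summed as well. In CD45.2 monocytes it came to 6978 to 11600 at 4-weeks and 5426 to 8619 at 32-weeks. In TR-AΦ it came to 4083 to 6569 and 2179 to 4733. Of its 12 genes 5 were lower and none higher at 32-weeks in TR-AΦ, beside 3.35% of all genes lower. In CD45.2 monocytes 2 were lower and none higher, beside 7.83% lower. In TR-AΦ the monocyte markers summed to 232 to 616 at 4-weeks and 133 to 401 at 32-weeks, with 2 of 9 tested lower (Csf1r and Cx3cr1) and none higher. The interstitial macrophage markers summed to 44.8 to 646 and 25.2 to 79.1, with none of 7 called. The platelet list summed to 13.1 to 38.9 and 2.10 to 18.6, with Pf4 lower, and 2 of 12 AΦ markers were higher (Ear1 and Atp6v0d2). The part of all these in the changes of F10 and Proz was not tested.

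In TR-AΦ the other tested genes did not pass the threshold between the time points. F13a1, the cross-linking factor, was at 5.90, 1.03 and 10.7 FPKM with FA and 2.98, 3.47 and 22.8 with PM2.5 at 4-weeks, and between 0.212 and 3.32 at 32-weeks. Its log2 change was -1.64 (adjusted p = 0.083), and without FA 4-weeks replicate 1 it passed (-2.00, adjusted p = 0.048). Plau, at 9.70 to 24.2 and 6.00 to 10.97 FPKM, had a log2 change of -0.54 (adjusted p = 0.149).

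The time changes were then compared between the cell types, as the change in TR-AΦ minus that in CD45.2 monocytes. Both differences called among the 9 genes were negative, those of F7 and Plau, beside 7.88% of 13307 genes called, 3.53% positive and 4.35% negative. For F7 the difference was -1.35 ± 0.39 on the log2 scale (adjusted p = 0.030) and for Plau -1.80 ± 0.40 (adjusted p = 0.0042). F7 passed the test in CD45.2 monocytes and not in TR-AΦ, where its range at 32-weeks lay within that of 4-weeks. The difference for Proz was not called. With a replicate block within exposure and time point Thbd (0.89, adjusted p = 0.018) and Plaur (0.59, adjusted p = 0.028) were called as well. Thbd was called also with the plain replicate block (0.89, adjusted p = 0.043). Without TR-AΦ PM2.5 4-weeks replicate 2 it was called at 1.16 (adjusted p = 0.013). The median over the 9 genes was -0.37 and over all genes tested 0.04.

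The third question was the effect of PM2.5 against FA in each population. None of the 9 genes was called in any of the 6 populations, and F5 was not tested in the AΦ populations. Calls over all genes were as few, at 0.0079% in TR-AΦ of 4-weeks, 0% in TR-AΦ of 32-weeks and 0.0158% in BM-AΦ of 32-weeks. In monocytes they were 0.00778% for CD45.2 at 4-weeks, 0% for CD45.1 at 32-weeks and 0% for CD45.2 at 32-weeks. At an unadjusted p under 0.05, limma counted 372, 396, 259, 272, 609 and 547 genes in the same order, and 2 of these were members, Proz in CD45.2 monocytes of 4-weeks and Thbs1 in CD45.1 monocytes of 32-weeks. No alternative called a member in any of these comparisons. In some populations the FA and PM2.5 libraries of a member did not overlap. Mean FPKM of Thbs1 in BM-AΦ was 1.42 with PM2.5 and 5.99 with FA. F10 in CD45.2 monocytes of 4-weeks had 94.76 and 73.95, and Proz in CD45.1 monocytes of 32-weeks 0.113 and 0.539. Of all genes tested, 6.44%, 6.57% and 8.89% did not overlap in these populations. With 3 libraries a side, the data do not show that PM2.5 left the genes as they were.

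Proz in monocytes of 4-weeks was at 10.4, 3.88 and 1.98 FPKM with FA and 13.6, 19.5 and 4.48 with PM2.5. The ranges overlapped (log2 difference of 1.10, adjusted p = 1). The test of whether the PM2.5 effect in TR-AΦ differed between 32-weeks and 4-weeks called 0.0079% of genes and no member. The test of whether it differed between BM-AΦ and TR-AΦ called 0.0158% and no member.

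**Figure D4:**
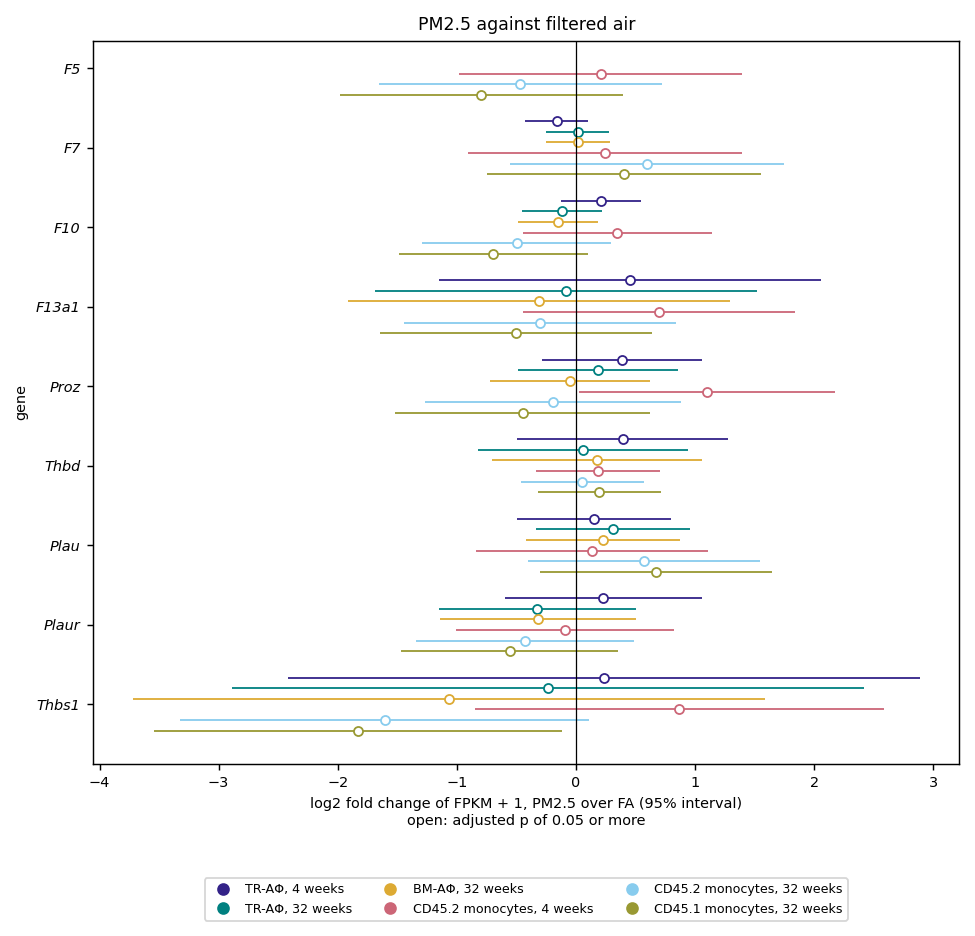
Log2 difference between PM2.5 and FA for the 9 genes in the 6 sorted populations, 3 libraries a side. F5 was not tested in the AΦ populations and has no point there. Bars are 95% intervals of the limma fit and all points are open, since none had an adjusted p under 0.05. The widest intervals are those of Thbs1.

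At 32-weeks the highest and the lowest library of Plaur carried the same exposure and replicate number in each population. Plaur in FA replicate 2 was the highest of its group in every population, at 265 FPKM in TR-AΦ, 214 in BM-AΦ, 295 in CD45.2 monocytes and 345 in CD45.1 monocytes. In PM2.5 replicate 2 it was the lowest in each, at 82.1, 89.9, 83.3 and 88.3 FPKM. The other libraries of 32-weeks lay between 105 and 199. Plaur was thus lower with PM2.5 by the mean in each population, with log2 differences of -0.32 in TR-AΦ, -0.32 in BM-AΦ, -0.43 in CD45.2 monocytes and -0.56 in CD45.1 monocytes. Without replicate 2 of every group the sign turned in all 4, to 0.35, 0.14, 0.27 and 0.14, and nothing passed the threshold with or without it.

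Thbs1 had the same pair of libraries at its top in monocytes. FA replicate 2 was at 3137 FPKM in CD45.1 and 2765 in CD45.2 monocytes, where the other FA libraries were at 330, 1462, 721 and 309. PM2.5 replicate 2 was the lowest of its group in both, at 165 and 193 FPKM, with the other PM2.5 libraries between 255 and 457. The log2 differences between PM2.5 and FA were -1.83 (adjusted p = 0.946) and -1.61 (adjusted p = 1), and in both the ranges overlapped. In AΦ, FA replicate 2 was also the highest of its group, at 14.0 FPKM in BM-AΦ and 2.68 in TR-AΦ. Haemoglobin and other red cell genes summed to 17.7 to 85.7 FPKM in the 8 replicate 2 libraries of 32-weeks and 0 to 19.5 in the other 16, with FA and PM2.5 alike. The study sequenced 3 mice for each exposure and time point, so the sorted populations may share mice. Which mouse a replicate number stands for is not given in the sources used here.

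**Figure D5:**
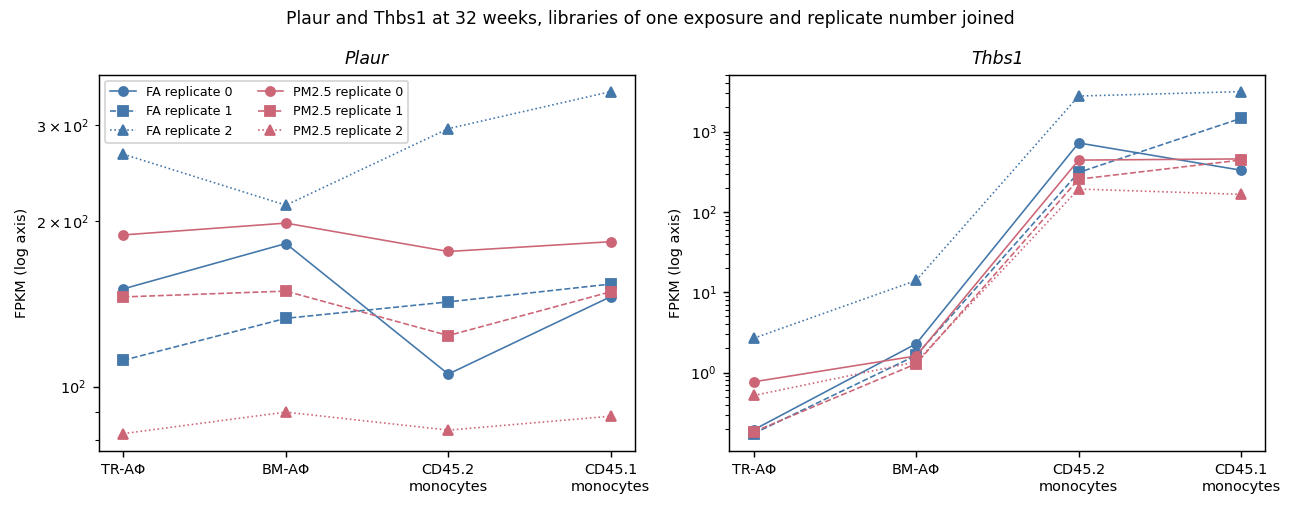
FPKM of Plaur and Thbs1 at 32-weeks in the 4 sorted populations, on log axes, with lines that join libraries of the same exposure and replicate number. FA replicate 2 is the highest and PM2.5 replicate 2 the lowest for Plaur in each population.

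The last comparison was between origins at 32-weeks, over FA and PM2.5 together. Between BM-AΦ and TR-AΦ none of the 8 genes tested was called, beside 0.316% of all genes. F10 came nearest, at 33.7 to 49.1 FPKM in BM-AΦ and 27.3 to 37.3 in TR-AΦ, which overlapped (log2 difference of 0.34, adjusted p = 0.345). F7 in AΦ had medians of 79.7 and 75.6 FPKM in the same order, within each other's range. Between CD45.1 and CD45.2 monocytes none of the 9 was called, beside 0.669% of all genes. F7 was at 0 to 1.91 FPKM in CD45.1 and 1.68 to 13.7 in CD45.2 monocytes (log2 difference of -1.17, adjusted p = 0.246). Plau was at 1.49 to 7.86 and 4.94 to 15.5 (-0.92, adjusted p = 0.308). F5 lies 26.0 Mb from Ptprc, the gene that carries the CD45.1 allele, and the part of donor sequence around it in the F5 values was not tested.

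Other genes of the pathway, from lists of 19 clotting factors and their processing enzymes, 10 inhibitors, 13 genes of the plasminogen system, 4 thrombin receptors and 6 thrombospondins and receptors, are given by their counts. Of the clotting list 6 genes passed the filter, and 4, 4 and 5 were higher in TR-AΦ at 4-weeks, TR-AΦ at 32-weeks and BM-AΦ, with none lower, beside the 22.6%, 23.6% and 27.1% of all genes that were higher. Vkorc1 (log2 differences of 1.73, 0.97 and 1.63) and Vkorc1l1 (1.57, 1.80 and 1.74), which recycle the vitamin K that factors VII and X and protein Z depend on, were among them. Vwf, the platelet-binding factor of endothelium, was higher by 1.35, 0.97 and 1.28. F3, tissue factor, was at most at 1.73 FPKM in any library and was not tested.

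Of the inhibitors 4 passed the filter, and 4, 3 and 4 were higher in AΦ, with none lower, beside the same shares of all genes. Pros1, protein S, the cofactor of protein C, was higher by 2.29, 1.82 and 2.22 on the log2 scale, and Tfpi, the inhibitor of factor VII with tissue factor, by 1.28, 0.82 and 0.78. Procr, the endothelial protein C receptor, was higher by 1.10 at 4-weeks and 1.28 in BM-AΦ and was not called at 32-weeks in TR-AΦ (0.21). Of the plasminogen system 5 passed the filter in that fit, and 4, 5 and 4 were higher, with none lower, again beside those shares. The plasminogen receptors Plgrkt (2.22, 2.09 and 2.24) and Anxa2 (1.56, 1.84 and 1.78) were among them. Of the thrombin receptors and thrombospondin receptors, F2rl2 (-1.02) was lower at 32-weeks, Cd36 (-0.73) was lower at 4-weeks, and Cd47 was higher at 32-weeks in TR-AΦ (0.69) and in BM-AΦ (0.65).

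Between the time points no gene of these lists was called in TR-AΦ. In CD45.2 monocytes Vkorc1 was higher at 32-weeks (log2 change of 0.97, adjusted p = 0.0034), as was Anxa5, a phospholipid-binding inhibitor (0.39, adjusted p = 0.043). Of the plasminogen system 1 gene was higher and 1 lower. The latter was Serpinb2, PAI-2, an inhibitor of urokinase (log2 change of -1.93, adjusted p = 0.0018). In no PM2.5 comparison was a gene of these lists called.

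The genes with the most alike pattern over the 18 libraries of the cell type in which each member was higher are given as a description, since the points share time point and library. For F7 in AΦ they were Glrx, Gm14494 and Il13ra1, with Pearson r of 0.879, 0.835 and 0.833 over log2(FPKM + 1). For Proz they were Gm37833, Clec12b and Gm17022, at 0.979, 0.962 and 0.96, the last of them its neighbour on chromosome 8. For Plau they were Cx3cr1, Idi1 and Slfn5, at 0.872, 0.865 and 0.856. In monocytes the nearest gene was Il6 for F10 (0.912), Tpd52 for F5 (0.914), 6330416G13Rik for F13a1 (0.903), Notch2 for Thbd (0.887), Cdkn1a for Plaur (0.923) and Uck2 for Thbs1 (0.969).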

How the data were processed

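RNA of sorted lung cells was sequenced in 36 libraries. Per the labels the authors used STAR, Cufflinks and Cuffdiff with mm10 (submitters' processing notes), and they deposited 1 table of FPKM per gene and library, with fragments scaled to gene length and library size. Because FPKM are not counts, they were tested here on a log scale in place of the authors' pairwise Cuffdiff runs, which need reads. Groups came from the sample titles.

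Values were transformed to log2(FPKM + 1), genes were kept where their average in the fitted libraries reached 1 FPKM, and limma 3.58.1 in R 4.3.3 was fitted with 1 mean per group and a mean-variance trend. Models held the 18 AΦ libraries, the 18 monocyte libraries, or all 36 for comparisons between the cell types, and Benjamini-Hochberg adjustment ran over all genes tested. Python 3.11.15, pandas 2.3.3 and matplotlib 3.10.9 were used for sequences and plots. The fit was tested on simulated data. A fold change on log2(FPKM + 1) understates the change of low genes. Positions are those of GENCODE for GRCm38, and promoters come from RefSeq for GRCm38.p6.

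The members and the lists of pathway and marker genes were chosen with earlier results of these data known. Genes named were the 9 members, at most 3 called genes per pathway list and comparison by size of change, Procr, F3 and Tfpi in any case, and the 3 genes most alike to each member. Some genes of the lists are not reported here. Alternatives were a pseudocount of 0.1, no filter, quantile normalization, TPM scaling, a model of the compared groups alone, a replicate block, FA or PM2.5 libraries alone, and leaving out replicate 2 or single libraries. A block within exposure and time point was added after seeing the data. The 3 mice of a group limit the precision, and depth is unknown.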

Additional observations from a re-analysis of the deposited data

Results flagged for a closer look

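The change from 4-weeks to 32-weeks differed between TR-AΦ and CD45.2 monocytes for 2 members by the interaction test of limma. For F7 the change in TR-AΦ minus that in monocytes was -1.35 ± 0.39 (SE) on the log2 scale (adjusted p = 0.030). Its call was lost with TPM scaling (adjusted p = 0.109), in a model of the compared groups alone (0.071), without replicate 2 of every group (0.099), and without CD45.2 monocytes FA replicate 0 of 4-weeks (0.056) or of 32-weeks (0.065). For Plau the difference was -1.80 ± 0.40 (adjusted p = 0.0042), and it was -1.06 (adjusted p = 0.146) without replicate 2 of every group. In CD45.2 monocytes both were higher at 32-weeks, whereas in TR-AΦ neither was called. Median FPKM in CD45.1 monocytes of 32-weeks was 0.855 for F7 and 4.09 for Plau. In CD45.2 monocytes it was 0.609 and 3.04 at 4-weeks, and 1.91 and 7.51 at 32-weeks. CD45.1 monocytes had no libraries of 4-weeks, so a change with time could not be tested in them. Groups of 3 libraries were not searched for single far samples.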

How the results depend on the processing

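Of 27 member differences that were called, none changed sign under any alternative, 19 kept the call under all of them and 8 lost it under at least one. Of 110 that were not called, 58 changed sign under some alternative and 6 were called under one. In TR-AΦ over time 2 members were called, and 1 with FA libraries only. In CD45.2 monocytes over time 5 were called, 1 with FA libraries only, 2 with PM2.5 libraries only and 2 without replicate 2 of every group. For the difference of time changes between cell types 2 were called, 1 with TPM scaling, 1 with the compared groups only, 0 without replicate 2 of every group, and 1 to 3 when single libraries were left out. Plaur between PM2.5 and FA at 32-weeks turned positive without replicate 2 of every group, at 0.35 in TR-AΦ, 0.14 in BM-AΦ, 0.14 in CD45.1 and 0.27 in CD45.2 monocytes, and ranged from -0.60 to 0.017 in TR-AΦ when single libraries were left out. The cause was not tested. F10 in BM-AΦ against CD45.1 monocytes was called with TPM scaling (0.79, adjusted p = 0.0024). That scaling moved the median of all genes by 0.17, 0.11 and 0.29 in the comparisons of cell type, and the calls from 3011 higher and 3397 lower to 4243 and 2127 at 4-weeks, from 3141 and 3150 to 3822 and 2381 at 32-weeks, and from 3601 and 3166 to 5443 and 1841 in BM-AΦ.

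Nothing in the labels says that replicate numbers pair samples, and not every pair passed the check. The correlation of deviations between same-numbered libraries was -0.0868 to 0.209 over 18 pairs of FA and PM2.5 groups, with 4 over 0.1 and 13 best with their own number, and -0.0415 to 0.155 over 42 pairs of the same exposure and time point, with 2 over 0.1 and 26 best with their own number, a hint from the data and not from the design. With a replicate block 3 members were called over time in TR-AΦ, F13a1 in addition (adjusted p = 0.0086), and 1308 genes in place of 748. For the difference of time changes the same block also called Thbd (adjusted p = 0.043). A replicate block within exposure and time point, chosen after seeing the data, called 4 members there, Thbd (0.018) and Plaur (0.028) in addition. In TR-AΦ against monocytes of 4-weeks it called Plaur (0.00095) and not F10 (0.059). Depth could not be examined, since the files hold FPKM only.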
